A study of Mus musculus with 6 samples.

Results

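The proximal end of mouse chromosome 17 is described here through the 202 genes that start below 24 Mb of it (RefSeq positions on GRCm38.p6), of 21507 genes measured in all. The region was chosen from the contrast reported here, because genes that differed between the groups gathered in it, so its differences are given as a description and none is tested. Hypothalamic RNA was measured on 6 Affymetrix whole-transcript GeneChips, 3 from ΔLepR mice and 3 from Slug fl/fl mice. The ΔLepR mice carried floxed Slug (gene symbol Snai2, a zinc finger repressor) together with homozygous LepR-Cre (Slugfl/fl;LepRCre/Cre), and the Slug fl/fl mice carried the floxed alleles without Cre, so that every animal was floxed at Slug. All were males on chow, 8 weeks old by the labels, which is younger than the age in the study's methods. Cre was a knockin at the leptin receptor locus by the methods, on a C57BL/6 background, whereas the labels speak of a CreERT2 line. The deletion was therefore aimed only at cells that express the long leptin receptor, while the RNA came from the whole hypothalamus. In such bulk tissue, fewer cells of a type and less RNA per cell cannot be told apart. The arrays are separate samples by their labels. How many mice each holds is not said there, so that the spread between arrays may in part be technical.

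Proximal chromosome 17 holds the t-complex, a stretch that some wild mice carry as an inverted and suppressed-recombination variant, the t haplotype, which is passed on to more than its fair share of offspring. The same stretch holds the imprinted Igf2r locus, where the paternal noncoding transcript Airn silences Igf2r in cis. Much of the rest is made of gene copies in tandem: C2H2 zinc finger genes, vomeronasal and formyl peptide receptors, and serine proteases. Such copies are alike in sequence, so array probes made for one can pick up another.

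The 3 ΔLepR arrays went against their label at the targeted gene: Snai2 stood at 10.36, 9.68 and 10.49 on the log2 scale in the arrays labeled ΔLepR, against 3.79, 4.23 and 4.23 in those labeled Slug fl/fl. Lepr, the leptin receptor gene that carries the Cre insertion, stood at 4.55, 4.16 and 4.42 in the arrays labeled ΔLepR, against 4.04, 3.72 and 3.96 in those labeled Slug fl/fl (log2 fold change 0.47, SE 0.130), past the study's threshold. Directions below follow the labels. Snai2 lies on chromosome 16 and Lepr on chromosome 4, so neither engineered locus is on chromosome 17. Of the markers, 5 of 5 neuronal, 4 of 4 astrocyte, 4 of 4 oligodendrocyte and 6 of 7 hypothalamic neuron genes were above the median of all genes. For pituitary 0 of 5 were above it and for testis 0 of 3, but for thalamus 2 of 3 and for choroid plexus 1 of 4. For microglia 4 of 5 were above it, for endothelium 3 of 4 and for ependyma 1 of 4, and no blood marker was measured. Avp (hypothalamic neurons) and Ccdc153 (ependyma) were lower in the arrays labeled ΔLepR at the study's threshold, and no other marker was past it. How much neighboring tissue the samples held was not tested. The median of each array over all genes lay between 4.17 and 4.20, and the arrays correlated at 0.991 to 0.993.

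Of the 202 members, 11 were higher and 7 were lower in the arrays labeled ΔLepR at the study's threshold, which asks for a difference of more than 1.25-fold upward or more than 25% downward at an unadjusted p below 0.05. Over all genes, 1.44% were higher and 0.577% were lower at that threshold (2.01% in either direction), while the members had 5.45% and 3.47%. Since the gathering of such genes is what chose the region, nothing is read from these shares. The groups did not overlap in 25 members that were higher (5.91% over all genes) and in 16 that were lower (5.56% over all genes). After adjustment over all genes (limma, Benjamini-Hochberg) 1 member remained, the uncharacterized gene 9030025P20Rik, and 0.0139% of all genes did. The log2 fold changes of the members ran from -0.63 to 1.39, with a median of 0.029, against 0.002 over all genes and 0.013 over the 839 other genes of the chromosome. Of the members, 118 were above 0 (58.4%, against 50.7% over all genes). Just inside the limits lay 9530082P21Rik and Zfp994 on the higher side (log2 fold changes of 0.36 and 0.38) and Zfp97 and Gm16702 on the lower side (-0.43 and -0.45). Just outside lay Prss33 and Tfb1m (0.30 and 0.29), and Gm16386 and Zfp942 (-0.27 each).

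**Figure D1:**
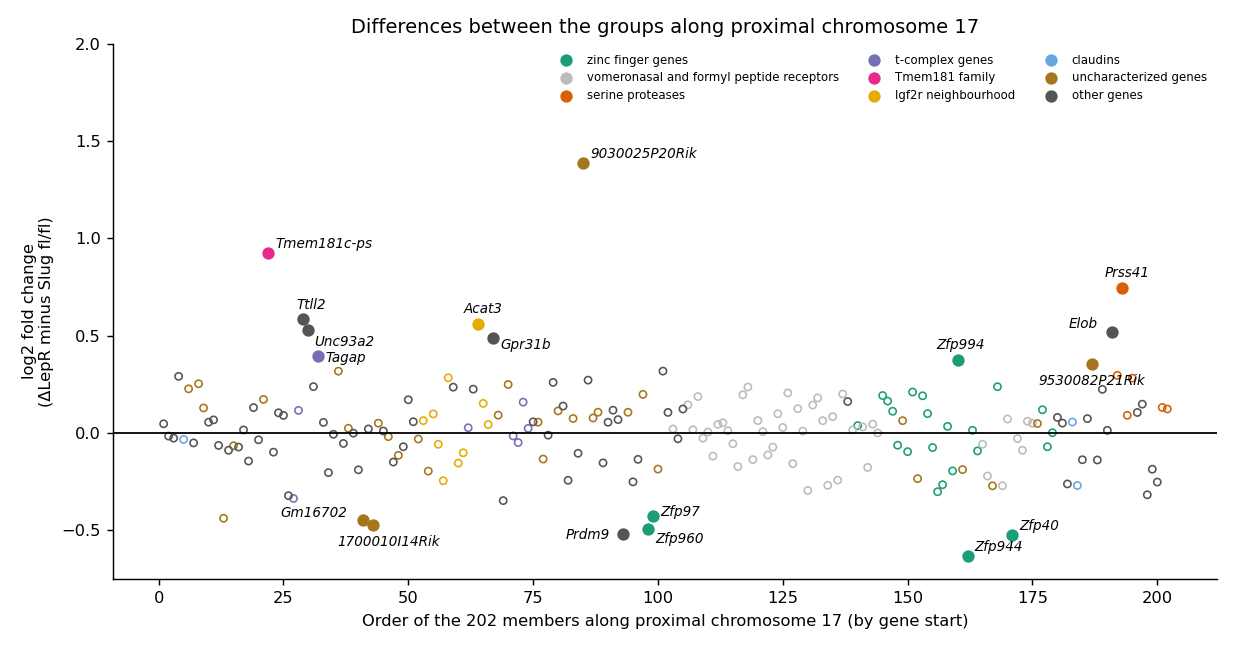
Log2 fold change (ΔLepR minus Slug fl/fl) of each of the 202 members against its order along the chromosome, with filled points for the 18 past the threshold and open points for the rest, colored by gene family. The 7 lower members lie between the positions of Gm16702 and Zfp40, and the first 4 members past the threshold are all higher.

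Along the chromosome the 18 members fell into short runs with long gaps. The stretch from 6 to 8 Mb held 4 of them among 16 members, all higher, and the next stretch to 10 Mb held 2 among 13, both lower. There were 2 higher members among 27 from 12 to 14 Mb, 1 higher and 1 lower among 20 from 14 to 16 Mb, and 2 lower among 10 from 16 to 18 Mb. The 44 members from 22 to 24 Mb held 4 higher and 2 lower ones. None lay among the 14 members from 18 to 20 Mb or the 38 from 20 to 22 Mb, most of them vomeronasal receptor genes. None lay among the 7 members from 2 to 4 Mb, the 10 from 4 to 6 Mb or the 3 from 10 to 12 Mb. The limit of 24 Mb did not mark an end: the next 1 Mb held 5 of 47 genes past the threshold, or 10.6%. From 24 to 28 Mb, 8 of 129 were past it, or 6.2%, against 2.01% over all genes. Taken in stretches of 24 Mb, the chromosome had 8.91% of its genes past the threshold in the first, then 3.53%, 2.37% and 0.971%. The first stretch was chosen for such genes, so nothing is read from this order.

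The differences were not shared evenly by the 3 arrays labeled ΔLepR. Of the 18 members past the threshold, 12 had their most extreme value of all 6 arrays in ΔLepR array 2. In the direction of each gene's difference, the median deviation from the 6-array mean was 0.21, 0.44 and 0.19 in ΔLepR arrays 1, 2 and 3, against -0.29, -0.33 and -0.17 in Slug fl/fl arrays 1, 2 and 3. How often that array held the most extreme value over all genes was not counted. Without ΔLepR array 2, 12 members were higher and 4 lower, and 11 of the 18 were among them. Over all genes, that fit called 1.73% higher and 0.818% lower, against 1.44% and 0.577% with every array. The part of that array in the differences was not tested further.

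**Figure D2:**
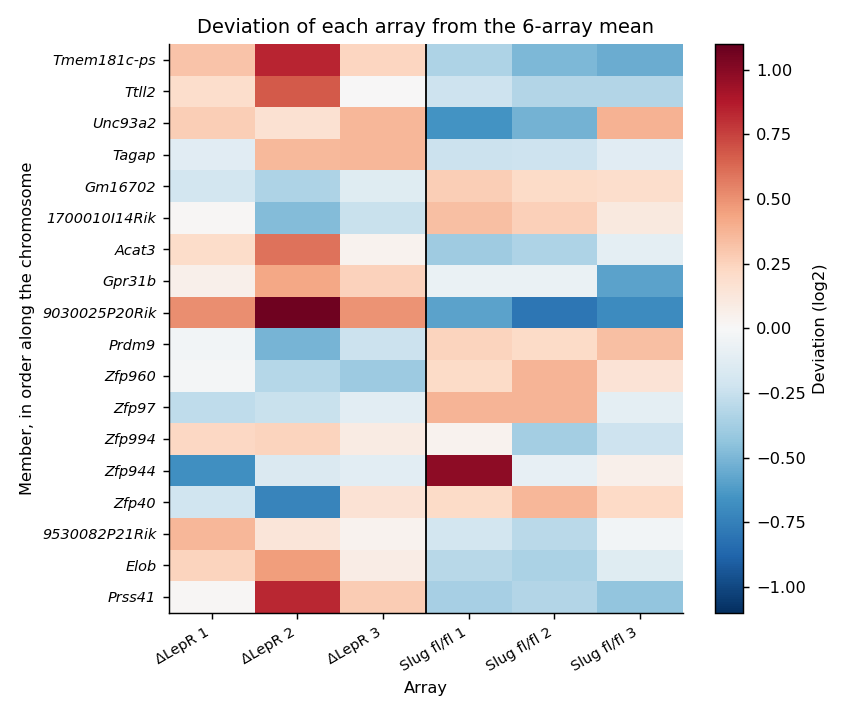
Deviation of each array from the mean of the 6 arrays (log2) for the 18 members past the threshold, in order along the chromosome, with the ΔLepR arrays left of the Slug fl/fl arrays. The column of ΔLepR array 2 is the most strongly colored, in both directions, and Unc93a2 is as high in Slug fl/fl array 3 as in the ΔLepR arrays.

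The first run opens with the Tmem181 family, genes and pseudogenes of a multipass membrane protein that lie in tandem near 6.61 Mb. Tmem181c-ps, a transcribed pseudogene, stood at 4.86, 5.38 and 4.78 in the arrays labeled ΔLepR, against 4.20, 4.05 and 3.99 in those labeled Slug fl/fl. Its log2 fold change was 0.93 (SE 0.154), a 1.90-fold difference, and the groups lay well apart. Its relatives Tmem181a and Tmem181b-ps share their rows of the table and are not members, as a value of such a row belongs to no single gene. The first of these joint rows stood at 8.91, 9.34 and 8.55 in the arrays labeled ΔLepR, against 7.99, 7.53 and 7.56 in those labeled Slug fl/fl, a log2 fold change of 1.24 (SE 0.195, 2.36-fold). The other stood at 8.16, 8.35 and 7.78 in the arrays labeled ΔLepR, against 7.74, 7.58 and 7.52 in those labeled Slug fl/fl (0.48, SE 0.145). So every row that belongs to the family alone was higher, whereas a row that Tmem181b-ps shares with Dynlt1f, a dynein light chain gene, overlapped between the groups (0.35, SE 0.232). Which copies the signal came from cannot be told apart on these rows. ΔLepR array 2 had the top value in each of them.

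**Figure D3:**
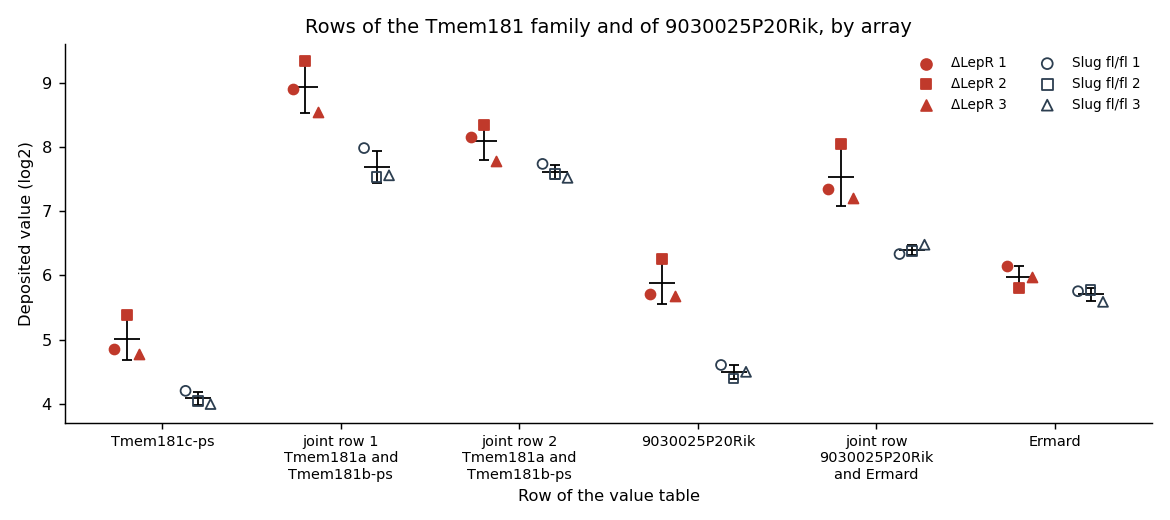
Deposited log2 value of each array for the Tmem181 rows, for 9030025P20Rik and for Ermard, with the ΔLepR arrays (filled) left of the Slug fl/fl arrays (open), and horizontal marks and bars for the mean and SD of 3 arrays. In all but the Ermard row, ΔLepR array 2 (square) is the highest of the 6.

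Ttll2, a member of the tubulin tyrosine ligase-like family that adds side chains to microtubules, starts at 7.35 Mb. It stood at 2.55, 3.03 and 2.36 in the arrays labeled ΔLepR, against 2.12, 2.03 and 2.03 in those labeled Slug fl/fl (log2 fold change 0.58, SE 0.156). These values were apart but lay far below the median of all genes, 4.18. The promoter of Ttll2 has a near copy farther along the region, in front of the lncRNA gene Gm11166. Over 300 bases around the start they were 99.3% identical. The 120 bases upstream of each start are shown to let the copies be compared, with the only base that differs in capitals (RefSeq, GRCm38.p6, chr17:7352697-7352816 and chr17:13098473-13098592, both on the minus strand).
Ttll2: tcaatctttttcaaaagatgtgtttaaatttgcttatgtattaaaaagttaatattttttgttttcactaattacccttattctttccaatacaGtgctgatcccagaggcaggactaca
Gm11166: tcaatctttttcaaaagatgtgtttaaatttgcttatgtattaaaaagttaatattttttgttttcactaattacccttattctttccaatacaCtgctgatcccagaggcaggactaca
The stretch of Ttll2 lies within the span of its longer gene model. Gm11166 overlapped between the groups, at 2.23, 2.40 and 2.08 in the arrays labeled ΔLepR, against 2.03, 2.27 and 2.14 in those labeled Slug fl/fl (0.09, SE 0.115). The difference between their fold changes was not tested.

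Unc93a2 starts next to Ttll2. It stood at 4.51, 4.41 and 4.61 in the arrays labeled ΔLepR, against 3.59, 3.73 and 4.63 in those labeled Slug fl/fl (0.53, SE 0.229). Slug fl/fl array 3 was the highest of all 6, and the gene passed the threshold only with every array or without that array (log2 fold changes of 0.33 to 0.85 with each array left out in turn). Tagap, a GTPase-activating protein of activated T cells, stood at 4.06, 4.54 and 4.55 in the arrays labeled ΔLepR, against 3.95, 3.96 and 4.06 in those labeled Slug fl/fl (0.39, SE 0.138). ΔLepR array 1 lay within the Slug fl/fl range, and without ΔLepR array 2 or 3 the gene was no longer past the threshold (0.31 in each case).

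The 2 lower members that follow were dim. Gm16702, a lncRNA gene at 8.38 Mb, stood at 3.21, 3.07 and 3.28 in the arrays labeled ΔLepR, against 3.69, 3.62 and 3.60 in those labeled Slug fl/fl (-0.45, SE 0.0974). 1700010I14Rik, an uncharacterized protein-coding gene, stood at 3.44, 2.95 and 3.18 in the arrays labeled ΔLepR, against 3.76, 3.69 and 3.53 in those labeled Slug fl/fl (-0.47, SE 0.133). The groups were apart in both genes. Without ΔLepR array 2, their log2 fold changes of -0.39 and -0.35 were short of the threshold.

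The list of t-complex genes holds Tcp1, Tcp10a and Tcte2, which carry the name, and the Smok and Tagap genes of the same stretch. None of those that carry the name was past the threshold. Of 8 members of the list, Tagap was past it and 7 were not, with log2 fold changes of those 7 between -0.34 and 0.16. Tcp1, the chaperonin subunit first found as a t-complex protein, had means of 8.83 in the ΔLepR arrays and 8.81 in the Slug fl/fl arrays (0.03, SE 0.0897). The lowest of the 7 was Tagap1, a gene tied to the t haplotype's transmission distortion, which stood at 3.87, 4.28 and 4.28 in the arrays labeled ΔLepR, against 4.78, 4.12 and 4.54 in those labeled Slug fl/fl (-0.34, SE 0.175). Tcp10a had 0.12, Tcte2 0.02 and the sperm motility kinase genes Smok2a, Smok2b and Smok4a -0.02, -0.05 and 0.16. The groups overlapped in each of these genes, and the sign turned for Tcp10a, Tcte2, Smok2a and Smok2b when single arrays were left out.

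In the Igf2r neighborhood, 1 of 10 members was past the threshold. This was Acat3, a cytosolic thiolase gene next to its close relative Acat2. It stood at 3.83, 4.22 and 3.67 in the arrays labeled ΔLepR, against 3.23, 3.29 and 3.52 in those labeled Slug fl/fl (0.56, SE 0.148), with the groups apart. The imprinted genes themselves were not past it. Igf2r, a receptor that clears insulin-like growth factor 2, had a log2 fold change of -0.06 (SE 0.095), with overlapping groups. Airn stood at 2.42, 2.68 and 2.74 in the arrays labeled ΔLepR, against 2.76, 2.90 and 2.91 in those labeled Slug fl/fl (-0.25, SE 0.112), apart by a narrow margin at a dim level. Mas1, the receptor for angiotensin-(1-7), had 0.28 (SE 0.11), also with the groups apart, Wtap, a subunit of the RNA adenosine methylation complex, had 0.15, and Sod2, the mitochondrial superoxide dismutase, had 0.04. Gpr31b, a G protein-coupled receptor gene whose human counterpart binds a hydroxylated fatty acid, starts at 13.05 Mb. It stood at 3.89, 4.26 and 4.08 in the arrays labeled ΔLepR, against 3.76, 3.76 and 3.24 in those labeled Slug fl/fl (0.49, SE 0.157). The groups were apart. Without Slug fl/fl array 3, its lowest, the log2 fold change was 0.31 and short of the fold limit.

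The largest difference of the region was that of 9030025P20Rik, a protein-coding gene without a known role, at 14.98 Mb. It stood at 5.70, 6.26 and 5.68 in the arrays labeled ΔLepR, against 4.60, 4.39 and 4.50 in those labeled Slug fl/fl. The log2 fold change was 1.39 (SE 0.155), or 2.61-fold, and more than 1 unit separated the groups. A row that it shares with its neighbor Ermard stood at 7.34, 8.04 and 7.21 in the arrays labeled ΔLepR, against 6.33, 6.38 and 6.48 in those labeled Slug fl/fl (1.14, SE 0.19, 2.20-fold). Ermard, a gene of the endoplasmic reticulum membrane, also has a row of its own. That row stood at 6.14, 5.81 and 5.98 in the arrays labeled ΔLepR, against 5.75, 5.77 and 5.59 in those labeled Slug fl/fl (0.27, SE 0.114), apart but not past the threshold. On the other side, Thbs2, Wdr27, 1600012H06Rik and Phf10 had log2 fold changes of 0.14, -0.24, 0.07 and -0.10. Beyond Ermard, Gm5091, Gm10510 and Dll1 had 0.08, 0.11 and -0.15. None of these neighbors was past the threshold, apart from the shared row.

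Prdm9, the histone methyltransferase that sets the places of recombination in meiosis, starts at 15.54 Mb and is known from germ cells. It stood at 3.58, 3.10 and 3.37 in the arrays labeled ΔLepR, against 3.85, 3.82 and 3.94 in those labeled Slug fl/fl (-0.52, SE 0.127). The groups were apart, at levels under the median of all genes. Without ΔLepR array 2 the gene was at -0.39 and not past the threshold.

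**Figure D4:**
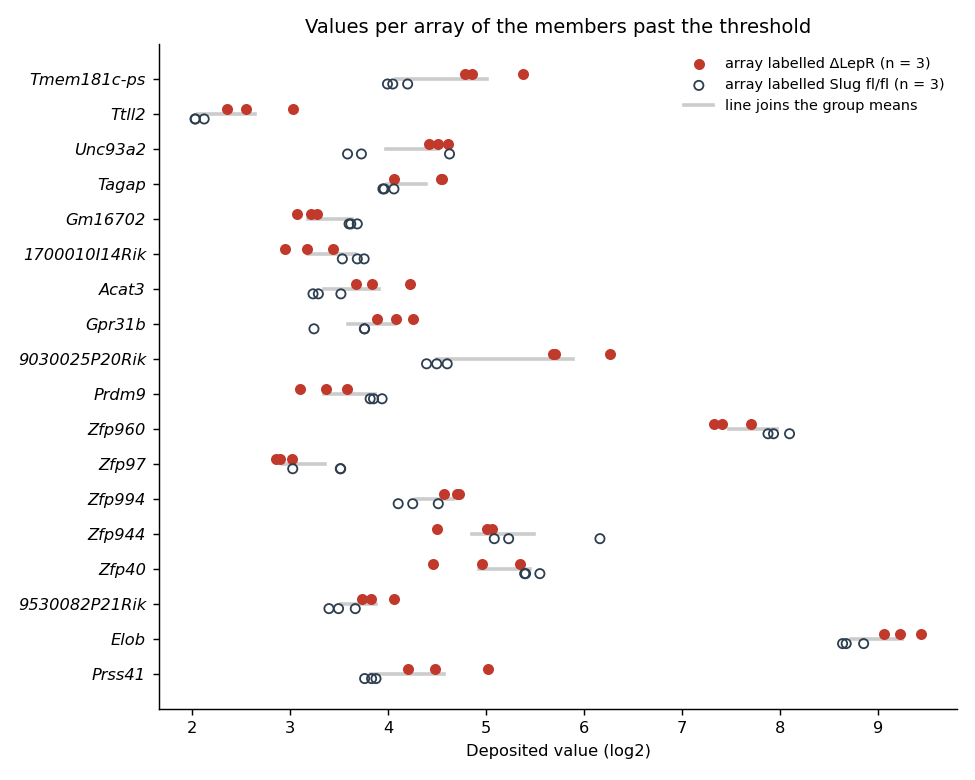
Deposited log2 value of each array for the 18 members past the threshold, in order along the chromosome, with the ΔLepR arrays (filled) drawn above the Slug fl/fl arrays (open) of the same gene and a gray line between the group means. In 16 genes the arrays of the groups do not overlap, and in Unc93a2 and Tagap they do.

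The zinc finger genes were the largest source of lower members. Of 25 in the region, 1 was higher, 4 were lower and 20 were not past the threshold, with a median log2 fold change of 0.001. Elsewhere in the genome 9 of 369 were higher and 2 were lower, with a median of -0.019. Over all genes, 1.44% were higher and 0.577% were lower. The region was chosen for such genes, so nothing is read about the family from these counts. With the methods' t-test, the lower genes Zfp97, Zfp944 and Zfp40 were not past the threshold. The median of the gene means was 5.14 over the 25 zinc finger members, against 3.18 over all members, though signals of different probes do not compare gene by gene. C2H2 zinc finger proteins of such clusters bind DNA in a sequence-specific way, and many repress transposable elements, though the targets of the genes named here are not known from these data.

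Zfp960, at 17.06 Mb, was 1 of the 4 lower zinc finger genes. It stood at 7.70, 7.41 and 7.32 in the arrays labeled ΔLepR, against 7.93, 8.09 and 7.87 in those labeled Slug fl/fl (-0.49, SE 0.122), with the groups apart. Next to it, Zfp97 stood at 2.86, 2.90 and 3.02 in the arrays labeled ΔLepR, against 3.52, 3.51 and 3.03 in those labeled Slug fl/fl (-0.43, SE 0.140), and Slug fl/fl array 3 was nearly as low as the ΔLepR arrays. It lost the threshold when ΔLepR array 1 or 2 or Slug fl/fl array 1 or 2 was left out (-0.39, -0.41, -0.35 and -0.35). Zfp97 is followed by the predicted gene Gm38396, whose promoter was the same over all 292 bases that the windows of both cover. Gm38396 had means of 6.96 in the ΔLepR arrays and 7.14 in the Slug fl/fl arrays (-0.19, SE 0.135), and its groups overlapped.

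The zinc finger cluster near 22 Mb held differences in both directions. Zfp944 stood at 4.50, 5.01 and 5.06 in the arrays labeled ΔLepR, against 6.16, 5.08 and 5.23 in those labeled Slug fl/fl (-0.63, SE 0.260). This was the lowest log2 fold change of the region, but the groups were apart by a narrow margin, and without Slug fl/fl array 1 it was -0.30 and without ΔLepR array 1 -0.45, neither past the threshold. Zfp942, at 21.93 Mb, stood at 6.04, 6.08 and 5.85 in the arrays labeled ΔLepR, against 6.28, 6.26 and 6.24 in those labeled Slug fl/fl (-0.27, SE 0.0990). It was apart but short of the fold limit. The promoters of Zfp944 and Zfp942 matched in 274 of the 275 bases that both windows cover. Each of them starts back to back with another zinc finger gene on the plus strand: 1 base lies between the gene models of Zfp944 and Zfp758, and 55 bases lie between those of Zfp942 and Zfp943. These opposite partners overlapped between the groups, with log2 fold changes of 0.01 (SE 0.111) for Zfp758 and 0.03 (SE 0.121) for Zfp943. Zfp758 stood at 4.99, 5.34 and 5.10 in the arrays labeled ΔLepR, against 5.15, 5.10 and 5.15 in those labeled Slug fl/fl. Zfp943 stood at 5.12, 5.24 and 4.99 in the arrays labeled ΔLepR, against 5.03, 5.29 and 4.92 in those labeled Slug fl/fl. The promoters of the partners were 94.8% identical too, and the difference within each set of partners was not tested.

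Zfp994, at 22.20 Mb, went the other way. It stood at 4.71, 4.72 and 4.57 in the arrays labeled ΔLepR, against 4.51, 4.10 and 4.25 in those labeled Slug fl/fl (0.38, SE 0.121), and without Slug fl/fl array 2 it was 0.28 and not past the threshold. Its promoter has a partial copy at the predicted gene Gm7072, with 84.7% identity over 321 aligned columns, 7 mismatches and 42 gaps. This copy lies within the span of the gene model of Gm7072, not in front of it. The 94 bases before the model of Zfp994 and their copy, a stretch without gaps and more alike than the whole, are shown with the 3 bases that differ in capitals, since these genes had fold changes of opposite sign (RefSeq, GRCm38.p6, chr17:22225660-22225753 and chr17:22314869-22314962, both on the minus strand).
Zfp994: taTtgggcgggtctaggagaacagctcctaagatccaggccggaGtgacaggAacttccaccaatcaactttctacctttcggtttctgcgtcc
Gm7072: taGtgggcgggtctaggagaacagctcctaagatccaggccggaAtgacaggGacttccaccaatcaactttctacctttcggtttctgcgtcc
Gm7072 stood at 5.81, 5.29 and 5.97 in the arrays labeled ΔLepR, against 6.08, 5.92 and 5.63 in those labeled Slug fl/fl (-0.19, SE 0.179), with the groups overlapping. Without ΔLepR array 2 the sign of Gm7072 turned, so the opposite signs held only with that array in the fit. The difference between the fold changes of Zfp994 and Gm7072 was not tested. Zfp40, at 23.17 Mb, stood at 4.96, 4.46 and 5.35 in the arrays labeled ΔLepR, against 5.39, 5.55 and 5.40 in those labeled Slug fl/fl (-0.53, SE 0.190). Its ΔLepR arrays were spread widely, and it was not past the threshold without ΔLepR array 2 (-0.29) or Slug fl/fl array 2 (-0.48).

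**Figure D5:**
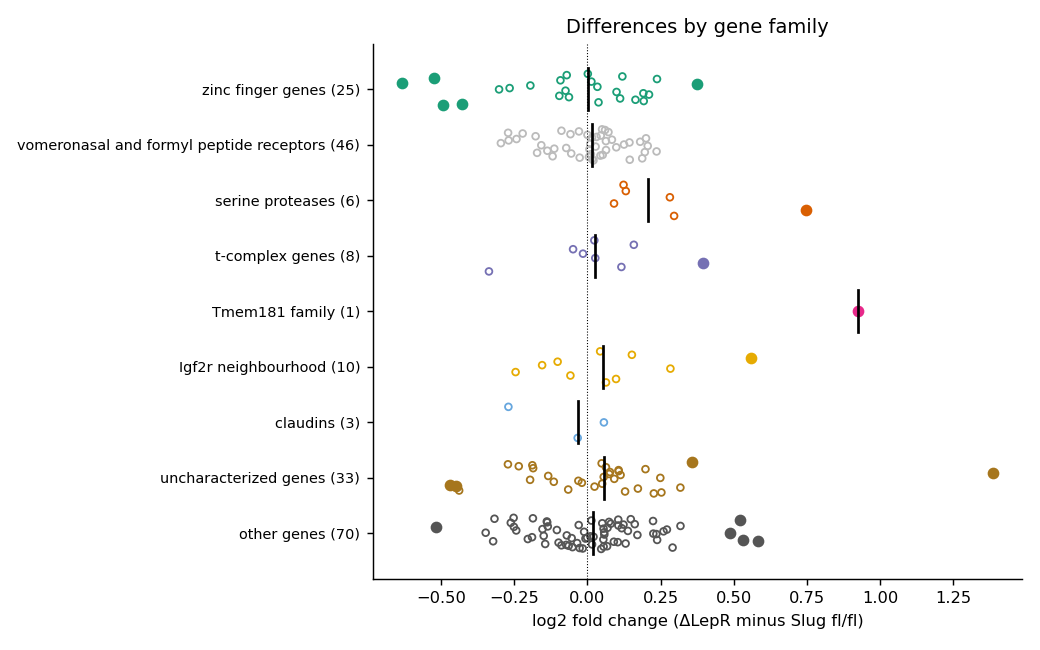
Log2 fold change (ΔLepR minus Slug fl/fl) of the members by gene family, with the number of members in brackets, filled points for those past the threshold and a black line at each family's median. The 6 serine proteases all lie above 0, and the 46 vomeronasal and formyl peptide receptors have none past the threshold.

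The vomeronasal and formyl peptide receptors made up 46 of the 202 members, and none was past the threshold. The vomeronasal receptors among them serve pheromone detection in the vomeronasal organ, a tissue that the samples should not hold. Their log2 fold changes ran from -0.30 to 0.24, with a median of 0.016, and the median level was 1.76, far under that of all genes. The family elsewhere in the genome had the same median difference of 0.016 and a level of 1.90, with 5 of 243 higher and 4 lower. The members with the smallest p were Vmn1r231, Fpr-rs3, Vmn2r108 and Vmn2r113, with log2 fold changes of -0.24, -0.30, 0.21 and -0.27. The row kept for Vmn1r233 stood at 10.28, 10.39 and 10.03 in the arrays labeled ΔLepR, against 10.22, 10.22 and 10.21 in those labeled Slug fl/fl. Its second row averaged 1.98, so the rows of this gene were far from each other. The 3 claudin genes of the region were not past the threshold either, between -0.27 and 0.06.

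The serine proteases of the Prss cluster lie at the distal end of the region. With every array in the fit, all 6 had log2 fold changes above 0, with a median of 0.206, against 19 of 37 above 0 and a median of 0.015 elsewhere in the genome. The region was chosen for its differences, so nothing is read from that contrast. Only Prss41, a membrane-anchored protease known from the testis, was past the threshold. It stood at 4.21, 5.02 and 4.48 in the arrays labeled ΔLepR, against 3.83, 3.88 and 3.76 in those labeled Slug fl/fl (0.75, SE 0.178, 1.68-fold), with the groups apart. Its neighbor Prss33 stood at 4.22, 3.92 and 4.05 in the arrays labeled ΔLepR, against 3.72, 3.73 and 3.86 in those labeled Slug fl/fl (0.30, SE 0.107). Prss21, or testisin, stood at 2.03, 2.22 and 2.14 in the arrays labeled ΔLepR, against 1.98, 1.94 and 1.63 in those labeled Slug fl/fl (0.28, SE 0.118). Both were apart between the groups. Prss32, Prss30 and Prss22 overlapped, with 0.09, 0.13 and 0.12. Without Slug fl/fl array 1 Prss32 was at -0.06, and without ΔLepR array 2 Prss30 was at -0.0. Prss30 and Prss22 are the last members inside 24 Mb. The first genes outside it are a further protease, Prss27, with a log2 fold change of 0.12 (SE 0.117), and Kctd5 with 0.02.

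Elob, which starts beside the proteases at 23.82 Mb, encodes elongin B, a subunit of the elongin complex and of cullin-based ubiquitin ligases. It stood at 9.22, 9.44 and 9.06 in the arrays labeled ΔLepR, against 8.67, 8.64 and 8.85 in those labeled Slug fl/fl (0.52, SE 0.120, 1.43-fold). The groups were apart. A second row of Elob stood at 8.85, 8.97 and 8.49 in the arrays labeled ΔLepR, against 8.31, 8.36 and 8.62 in those labeled Slug fl/fl (0.34, SE 0.141), and here ΔLepR array 3 lay below Slug fl/fl array 3. The lncRNA gene 9530082P21Rik, at 23.75 Mb, stood at 4.06, 3.83 and 3.74 in the arrays labeled ΔLepR, against 3.49, 3.40 and 3.67 in those labeled Slug fl/fl (0.36, SE 0.118). It was apart, but not past the threshold without ΔLepR array 1 (0.26) or Slug fl/fl array 2 (0.29).

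The remaining members were 33 uncharacterized genes and 70 other genes. The 29 uncharacterized genes that were not past the threshold ran from -0.44 to 0.32, and the 65 such genes of the last group from -0.35 to 0.32. Among them, Tfb1m, a mitochondrial ribosomal RNA methyltransferase gene near the proximal end, stood at 5.88, 5.75 and 5.86 in the arrays labeled ΔLepR, against 5.59, 5.51 and 5.53 in those labeled Slug fl/fl (0.29, SE 0.0926). Wdr27 stood at 2.81, 2.86 and 2.86 in the arrays labeled ΔLepR, against 3.14, 3.04 and 3.08 in those labeled Slug fl/fl (-0.24, SE 0.0904). The groups were apart in each. Chd1, a chromatin remodeler gene, had -0.25 and Smoc2, a matrix protein gene, had 0.26, in both cases with an unadjusted p under 0.05 (limma) and a fold short of the limit.

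Level was not used to choose the region. Spread within groups enters the p-value of the threshold, so it was not independent of the choice, and both are given only as a description. The median of the gene means was 3.18 over the members, against 4.05 over the rest of chromosome 17 and 4.18 over all genes, and 78 of 202 members reached that last value in one group or both. The median SD within groups was 0.152 over the members and 0.138 over all genes, and it was 0.218 over the 18 members past the threshold. Of those 18, 8 lay below 4.18 in both groups. No probe could be set against its own background, so the dim members have no detection call.

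Promoter letters were read for the motif CAGGTG, the E-box that Slug binds. It was searched in both orientations (CAGGTG and CACCTG) from 250 bases before to 50 bases after each RefSeq start. Of the 202 members, 172 had a promoter in the table, and 44 of them held the motif (25.6%), against 22.6% of all 27025 genes of the promoter table. Among members with a promoter, it was found in 1 of 8 higher ones, in 0 of 5 lower ones and in 43 of 159 of the rest (27.0%). The higher member with a match was Tagap, whose motif lies 52 bases before the start. Tmem181c-ps, Acat3, 9030025P20Rik, Zfp960 and Zfp40 had no promoter in the table and were not searched. The Tagap stretch is shown with the match in capitals (RefSeq, GRCm38.p6, chr17:7925880-7925999, plus strand). It is the only such match among the members past the threshold that had a promoter.
Tagap: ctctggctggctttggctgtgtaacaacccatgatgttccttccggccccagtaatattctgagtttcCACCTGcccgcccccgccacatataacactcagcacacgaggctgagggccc
The median GC content was 34.7% over the vomeronasal and formyl peptide receptors and 52.3% over all members. Among the members past the threshold that had a promoter, it ran from 40.7% at Ttll2, with no CpG in 300 bases, to 69.7% at Elob, with 34. Of 97 member pairs with promoters at least 70% identical, 87 lay within the vomeronasal and formyl peptide receptors, 4 held a member past the threshold and 0 held such members on both sides.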

How the data were processed

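The authors deposited processed log2 values of each probe set on each array. The log base is inferred from the range of 0.90 to 12.43. The submitters' notes name MAS5 without a role, and how background and scale were handled is not given in the sources used here. Platform annotation gave 1 gene symbol to 21925 of 24663 rows. The brightest row per gene was kept, leaving 21507 genes, and gene starts came from RefSeq (GRCm38.p6) through Entrez identifiers. Probe positions were not used here. Groups were compared with lmFit and eBayes (limma 3.58.1, R 4.3.3) over all genes without covariates, and rows with several symbols in a fit of all 24663 rows, added after seeing the data. The fit was tested on simulated arrays. Promoters were aligned with Biopython 1.88. The members and gene lists were chosen with earlier results of these data known. Named are members past the threshold, those of the Tmem181, protease and t-complex lists, up to 4 of each other list by smallest p, neighbors of the largest difference and of the 24 Mb limit, and genes that check the labels. Members with like promoters, those next to the threshold, Igf2r, Sod2, Chd1, Smoc2 and Vmn1r233 were named after their values were seen. Alternatives were the methods' t-test (SciPy 1.17.1), other priors, normalizations, row choices, array weights, limits, a replicate block and each array left out. With 3 arrays a group, their number limits the precision.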

Additional observations from a re-analysis of the deposited data

How the results depend on the processing

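The counts of 11 higher and 7 lower members were the same, gene for gene, with an intensity trend and robust prior, quantile normalization, median centring, the mean of rows per gene and array weights. A ratio limit of 0.8 gave 11 and 7 too, and every row on its own gave 12 and 7. The methods' t-test called 8 higher and 4 lower, 12 of the 18 in all, and lost Unc93a2, Tagap, Gpr31b, Zfp97, Zfp944 and Zfp40. Over all genes it called 156 higher and 62 lower, against 309 and 124. Leaving out dim genes kept 78 members, of which 7 were higher and 3 lower. Over all genes kept, 1.37% were higher and 0.576% lower. A region limit of 20 Mb left 7 higher members and a limit of 28 Mb gave 17, as the number of genes changed to 120 and 331. With each array left out in turn, 11 to 15 members were higher and 4 to 8 lower, over a median log2 fold change of 0.014 to 0.036. The fewest lower members were without ΔLepR array 2, and the cause was not tested. Over all genes these fits called up to 463 higher and 189 lower. Of the 18 members, 7 were past the threshold in every such fit and setting (Tmem181c-ps, Ttll2, Acat3, 9030025P20Rik, Zfp960, Elob and Prss41, except where Ttll2 and Acat3 were left out as dim). Same-numbered arrays did not deviate together (correlations of 0.00, -0.01 and -0.06), and the labels give them only a shared number. With 3 arrays a group, such correlations cannot tell whether arrays were handled in pairs. With the replicate block, 11 members were higher and 7 lower, all 18 kept. None of the 18 turned its direction under any alternative. Among named genes not past the threshold, some signs turned with an array left out. Such genes were Tcp10a (0.12, and -0.17 without ΔLepR array 3), Prss32, Prss30, Smok2a, Smok2b, Tcte2, Cldn20, Kctd5, 1600012H06Rik and Gm10510, among others. Without ΔLepR array 2, Zfp758, Zfp943, Vmn1r233 and Gm7072 turned too. Identity of the proteins within families was not run. The 3 arrays a group, the unknown processing before deposit and rows shared by gene copies limit what the values can show.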
